A study of Homo sapiens with 12 samples.

Results

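Notch signalling was followed through 10 genes in SCC-15 cells, an established line of human oral squamous cell carcinoma: the receptors NOTCH1, NOTCH2 and NOTCH3, the ligands JAG1, JAG2 and DLL1, and the targets HES1, HES4, HEY1 and NRARP. The genes were taken by symbol, and all 10 were found among the 61044 IDs of the count table. The control group (NC) carried a negative-control short hairpin RNA, and the groups shRNA1, shRNA2 and shRNA3 each carried a different hairpin against FMOD, the gene of the matrix proteoglycan fibromodulin. By the labels, all groups share the SCC-15 background and the harvest at 48 hours. Whether the NC and hairpin lines came from the same stock of cells could not be checked, so a change against NC is a difference between these lines. Each of the 4 groups had 3 RNA-seq libraries, 12 in all. The stated aim was to find the genes that FMOD depletion changes. The labels do not say whether a hairpin line is 1 clone or a pool, nor that the 3 libraries of a group came from separate cultures, so the p-values measure only the spread between these libraries.

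Notch receptors are single-pass membrane proteins that are cut after a ligand on a neighbouring cell binds them. The freed intracellular part enters the nucleus, joins the DNA-binding protein RBPJ and a Mastermind co-activator, and switches on target genes, among them the HES and HEY repressors. In stratified squamous epithelium, Notch signalling is known for its part in the exit of keratinocytes from the basal layer, and inactivating mutations of NOTCH1 are known from squamous cell carcinomas.

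The promoter sequences of 3 target genes are shown because HES1 and HES4 took the same pattern across the libraries while NRARP took another. Each is the stretch from 250 to 51 bases before the RefSeq start site (GRCh38.p14), 5′ to 3′ on the gene's strand, at chr3:194135898-194136097 (plus strand) for HES1, chr1:1000148-1000347 (minus strand) for HES4 and chr9:137302322-137302521 (minus strand) for NRARP. Capitals mark TGGGAA, the core of the site that RBPJ is known to bind. It was searched on both strands, TTCCCA being its reverse complement.
HES1: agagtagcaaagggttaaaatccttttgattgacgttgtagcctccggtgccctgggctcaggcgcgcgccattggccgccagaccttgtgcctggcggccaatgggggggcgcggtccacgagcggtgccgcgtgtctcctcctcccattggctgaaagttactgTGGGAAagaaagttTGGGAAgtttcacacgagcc
HES4: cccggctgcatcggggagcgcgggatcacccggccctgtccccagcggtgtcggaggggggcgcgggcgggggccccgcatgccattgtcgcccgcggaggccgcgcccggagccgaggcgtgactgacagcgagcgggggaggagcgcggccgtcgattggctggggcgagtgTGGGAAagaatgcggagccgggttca
NRARP: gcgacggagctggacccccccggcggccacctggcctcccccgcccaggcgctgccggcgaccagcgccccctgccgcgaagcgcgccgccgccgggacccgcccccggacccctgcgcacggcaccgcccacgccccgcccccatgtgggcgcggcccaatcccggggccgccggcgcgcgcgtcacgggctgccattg
Over the 250 bases before the start, HES1 held 2 matches, beginning 84 and 70 bases upstream, and HES4 held 1, beginning 76 bases upstream. NRARP held none, and neither did NOTCH1, NOTCH2, NOTCH3, JAG1 and JAG2. Promoters were matched for 8 of the 10 genes, not for DLL1 and HEY1. Of 35116 RefSeq windows of this length, 20.8% held at least 1 match and 2.9% at least 2. A match is a run of letters, not a measured binding site, and a link between matches and expression was not tested.

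Library totals lay between 17287017 and 19567289 estimated counts. FMOD itself was read at 2, 2 and 3 counts in NC and at 0 in all 9 shRNA libraries. On library totals without TMM scaling, a count of 0 allows up to 0.213 CPM (exact 95% upper bound), so the depletion of FMOD could not be sized. The other CPM given here are counts scaled to the TMM-adjusted library total. NC stood apart from the other groups: log2 CPM correlated at 0.829 to 0.855 between NC and shRNA libraries and at 0.904 to 0.996 among shRNA libraries. Libraries 1 and 2 of shRNA3 also stood apart from library 3 of that group (0.916 and 0.919, against 0.995 with each other). Their TMM scaling factors were 0.771 and 0.794, against 1.06 for library 3. Squamous keratinocyte markers (10 genes) summed to 4170 to 4670 CPM in NC and 2330 to 5970 in the shRNA libraries, none at 0 in any group. KRT5, the basal keratin, had 1008 ± 42.4 CPM in NC against 21.4 ± 6.71 (shRNA1), 80.1 ± 2.47 (shRNA2) and 74.8 ± 22.02 (shRNA3; SD, n = 3). The list did not move as one: the means of KRT14, KRT17 and KRT6A were higher in every shRNA group than in NC (KRT17 at 312 CPM in NC and 647, 571 and 748 in the shRNA groups). Markers of simple or glandular epithelium (6 genes) summed to 1910 to 2020 CPM in NC and 4840 to 7700 in the shRNA libraries. Fibroblast markers (8 genes) summed to 56.8 to 59.7 and 15.6 to 86.6 CPM, endothelial markers (4) to 17.6 to 23.1 and 3.88 to 13.2, leukocyte markers (5) to 53.9 to 72.2 and 44.0 to 236, and melanocyte markers (4) to 14.5 to 16.4 and 3.18 to 10.6, in NC and in the shRNA libraries. Among the markers at 0 counts in every library of a group were THY1, DCN and PTPRC in NC, LUM, KDR, CD3E and TYR with shRNA1, COL1A2, COL3A1, DCN, KDR, CD3E, LYZ and TYR with shRNA2, and LUM, KDR and TYR with shRNA3. At least 1 CPM in every library of a group was reached by 1 of the 5 leukocyte markers in each group. Of the 8 fibroblast markers, 3 reached it in NC and 1 in each shRNA group. The part of the library and marker differences above in the Notch results was not tested. In bulk RNA, fewer cells of a kind and less RNA per cell cannot be told apart.

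Among the receptors, NOTCH3 fell to between 0.583 and 1.74 CPM with the FMOD hairpins, NOTCH1 rose with every hairpin, and NOTCH2 did not pass the test with any under the settings used throughout. NOTCH3 (ENSG00000074181; chromosome 19, 15159038 to 15200981, minus strand, GRCh38 in GENCODE release 29; it holds the microRNA gene MIR6795) was read at 301, 246.6 and 268 CPM in the 3 NC libraries. With shRNA1 it was read at 1.74, 0.726 and 0.774 CPM, with shRNA2 at 1.46, 1.18 and 1.49, and with shRNA3 at 0.889, 0.583 and 0.943. All 9 shRNA libraries lay far below all 3 NC libraries, and they held between 8 and 35 NOTCH3 counts each, against 5013 to 5968 in NC. The fall of NOTCH3 on the log2 scale was -7.97 (SE 0.32) with shRNA1, -7.62 (SE 0.32) with shRNA2 and -8.37 (SE 0.34) with shRNA3, or 250-, 196- and 330.5-fold. The adjusted p-values were 3.56e-08, 3.4e-08 and 3.17e-08 (edgeR's quasi-likelihood test, Benjamini-Hochberg over 17532 genes). The same test and adjustment hold for every adjusted p-value below.

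NOTCH1 (ENSG00000148400; chromosome 9, 136494433 to 136545786, minus strand; overlapping MIR4673 on its strand and AL592301.1 on the other) encodes the receptor whose loss is known from squamous carcinomas. It was read at 103.1, 89.6 and 86 CPM in NC and at 256, 221 and 181 with shRNA1. The shRNA2 libraries had 161, 160.4 and 158 CPM, and the shRNA3 libraries 266, 225 and 201. Every shRNA library lay above every NC library, with shRNA2 nearest to NC. NOTCH1 was 2.36-, 1.72- and 2.48-fold above NC with hairpins 1, 2 and 3. The fitted log2 change was 1.24 (SE 0.16) with the first, 0.78 (SE 0.15) with the second and 1.31 (SE 0.16) with the third hairpin, at adjusted p-values of 5.21e-05, 0.00129 and 3.77e-05.

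NOTCH2 (ENSG00000134250; chromosome 1, 119911553 to 120069626, minus strand) encodes a receptor close to NOTCH1 in structure. Its NC libraries had 209, 149 and 140 CPM and its shRNA1 libraries 255, 183 and 204. The shRNA2 libraries had 156, 168 and 153 CPM and the shRNA3 libraries 134, 109.7 and 133. NC spanned the values of shRNA2 and overlapped those of shRNA1, and shRNA3 lay just under the lowest NC library. The log2 fold changes against NC were 0.36 (95% interval -0.03 to 0.75), -0.07 (-0.46 to 0.32) and -0.40 (-0.79 to -0.01), with adjusted p-values of 0.101, 0.775 and 0.0767. NOTCH2 passed under 3 of 20 alternatives with shRNA1 and 3 of 20 with shRNA3. Without libraries 1 and 2 of shRNA3 its change with shRNA1 was 0.38 (adjusted p 0.0386), and without library 1 of NC it was 0.57 (adjusted p 0.0207). NOTCH2 shares sequence with the NOTCH2NL genes, so some of its reads may be split with them. NOTCH2NLA was read at 24.5 ± 2.43, 16.3 ± 3.00, 15.5 ± 2.34 and 29.9 ± 13.8 CPM in NC, shRNA1, shRNA2 and shRNA3 (SD, n = 3). These values are under those of NOTCH2 in CPM, which does not allow for the longer exons of NOTCH2. NOTCH2NLB, NOTCH2NLC and NOTCH2NLR are not reported here.

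**Figure D1:**
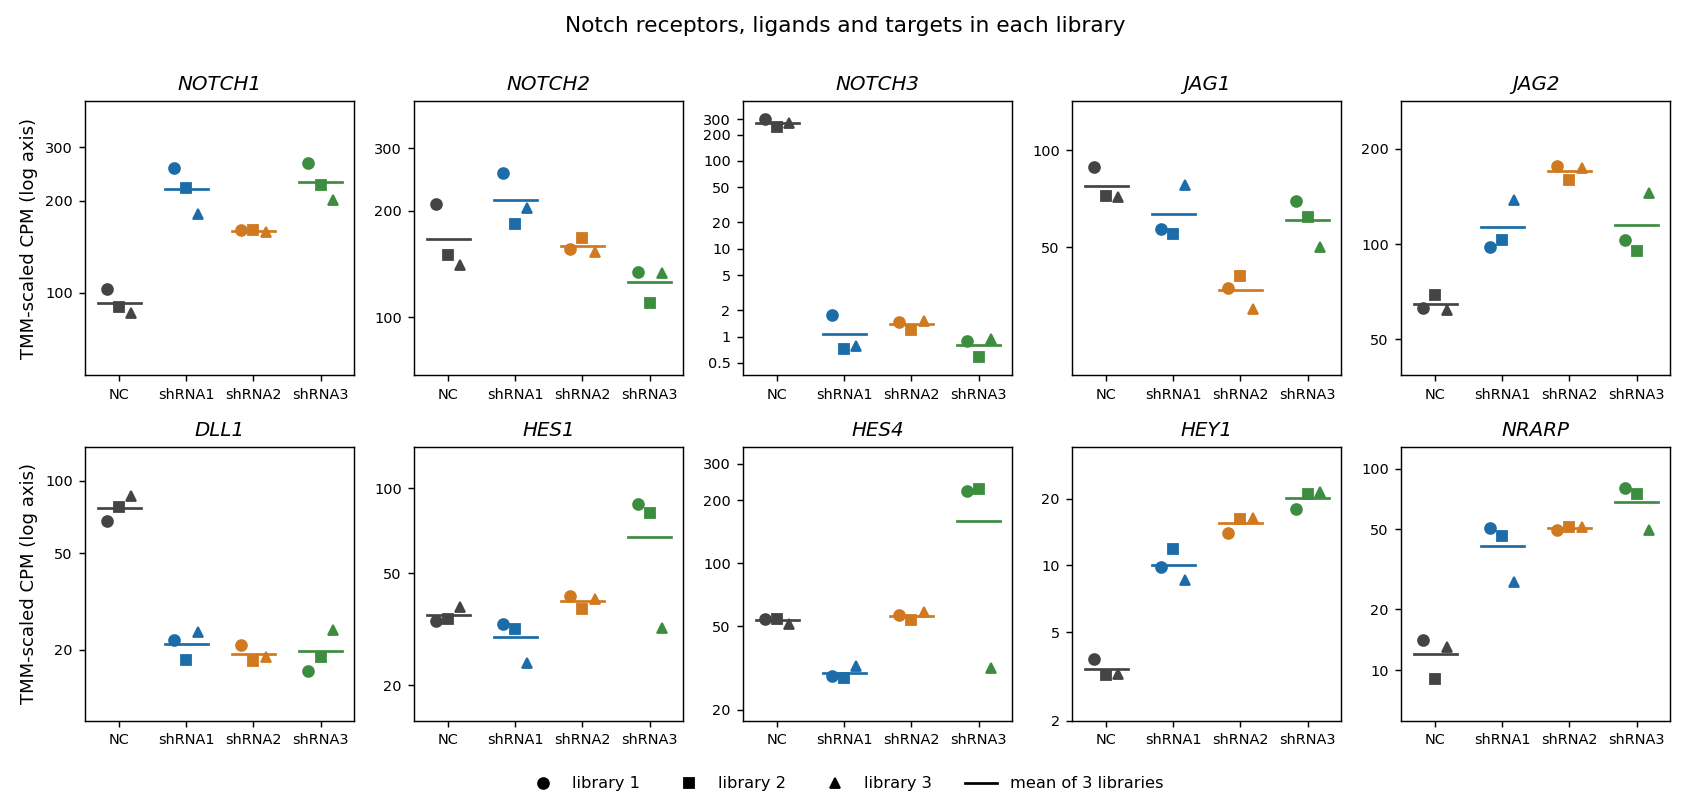
TMM-scaled CPM on a log axis for each of the 10 genes (panels) in each library; circles, squares and triangles are libraries 1, 2 and 3 of a group and the line is the group mean. NOTCH3 lies between 0.583 and 1.74 CPM in the 9 shRNA libraries and between 246.6 and 301 in NC, while HES1 and HES4 are high in libraries 1 and 2 of shRNA3 alone.

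Per kilobase of exon, the scale on which genes can be compared, the receptor transcripts changed their make-up. In NC the level of NOTCH3 was 28.9 ± 2.92 CPM per kilobase (SD, n = 3), above NOTCH2 at 9.89 ± 2.23 and NOTCH1 at 8.95 ± 0.869, which did not differ beyond their spread. With shRNA1 the order was NOTCH1 at 21.1 ± 3.62, NOTCH2 at 12.7 ± 2.20 and NOTCH3 at 0.115 ± 0.0609. NOTCH1 also led with shRNA2 (15.4 ± 0.165 against 9.44 ± 0.468 for NOTCH2) and shRNA3 (22.2 ± 3.15 against 7.48 ± 0.828). NOTCH3 made up 60.7% ± 2.21 of the summed level of the 3 receptors in NC and 0.327% ± 0.120, 0.589% ± 0.0846 and 0.289% ± 0.0737 with shRNA1, shRNA2 and shRNA3. The share of NOTCH1 went from 18.8% ± 0.813 in NC to 62.1% ± 3.65, 61.6% ± 0.999 and 74.5% ± 3.26. The summed receptor level was 47.8 ± 5.80 CPM per kilobase in NC and 33.9 ± 5.39, 25.0 ± 0.549 and 29.8 ± 3.41 in the shRNA groups, so the gain in NOTCH1 was smaller than the loss of NOTCH3.

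The ligands moved in different directions: DLL1 fell, JAG2 rose, and JAG1 fell with shRNA2. DLL1 (ENSG00000198719; chromosome 6, 170282206 to 170306565, minus strand; overlapping FAM120B on the other strand) encodes a Delta-type ligand. Its NC libraries had 68.1, 77.6 and 86.4 CPM, against 21.9, 18.1 and 23.6 with shRNA1, 21, 18.02 and 18.7 with shRNA2, and 16.3, 18.7 and 24.2 with shRNA3. All 9 shRNA libraries lay below NC and overlapped one another. The fall of DLL1 on the log2 scale was -1.87 (SE 0.18) with shRNA1, -2.01 (SE 0.18) with shRNA2 and -1.97 (SE 0.18) with shRNA3, or 3.66-, 4.03- and 3.91-fold, at adjusted p-values of 8.5e-06, 5.41e-06 and 6.6e-06.

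JAG2 (ENSG00000184916; chromosome 14, 105140981 to 105168824, minus strand; overlapping MIR6765 and AL512356.1 on its own strand) encodes a Jagged ligand. Its NC libraries had 62.7, 69.3 and 61.8 CPM, its shRNA1 libraries 97.9, 103.3 and 138, its shRNA2 libraries 177, 159 and 174, and its shRNA3 libraries 103.3, 95.3 and 145. NC was lowest throughout and shRNA2 highest. JAG2 was 1.75-, 2.63- and 1.77-fold above NC with hairpins 1, 2 and 3. The fitted log2 change was 0.81 (SE 0.18) with the first, 1.40 (SE 0.18) with the second and 0.83 (SE 0.18) with the third hairpin, at adjusted p-values of 0.00252, 6.8e-05 and 0.00233.

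JAG1 (ENSG00000101384; chromosome 20, 10637684 to 10673999, minus strand; overlapping MIR6870 and, on the other strand, AL050403.2) encodes the other Jagged ligand. It was read at 88.9, 72.4 and 71.7 CPM in NC and at 57.1, 54.8 and 77.9 with shRNA1. The shRNA2 libraries had 37.4, 40.8 and 32.04 CPM and the shRNA3 libraries 69.8, 62.2 and 50.01. The shRNA2 libraries were the lowest of all, while library 3 of shRNA1 lay within the NC range. JAG1 fell by 1.08 (SE 0.19) on the log2 scale with shRNA2, or 2.11-fold (adjusted p 0.000484). The log2 fold changes with shRNA1 and shRNA3 were -0.30 (SE 0.18, adjusted p 0.186) and -0.36 (SE 0.18, adjusted p 0.12). For the mean of the 3 hairpins against NC the change of JAG1 was -0.58 (SE 0.14, adjusted p 0.00465), with shRNA libraries overlapping NC. With libraries 1 and 2 of shRNA3 left out, library 3 of that group alone gave -0.60 (adjusted p 0.0275, edgeR quasi-likelihood, the lone library being assumed to vary like the other groups).

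Per kilobase, DLL1 was the leading ligand of the 3 in NC, at 24.0 ± 2.84 CPM per kilobase, and JAG2 (10.1 ± 0.639) and JAG1 (8.35 ± 1.05) followed. JAG2 led in each shRNA group, at 17.7 ± 3.38, 26.6 ± 1.44 and 17.9 ± 4.17. The share of DLL1 in the summed ligand level went from 56.4% ± 4.26 in NC to 21.3% ± 2.38, 16.3% ± 0.640 and 20% ± 2.05, and that of JAG2 from 23.8% ± 1.78 to 56.8% ± 2.28, 72.8% ± 1.64 and 58.1% ± 4.96 (SD, n = 3). JAG1 had 19.8% ± 3.36 of the level in NC, 21.9% ± 0.591 with shRNA1, 10.9% ± 1.57 with shRNA2 and 21.9% ± 5.93 with shRNA3. These levels divide by the union of a gene's annotated exons, since the transcripts in use are not known. With the longest transcript as the length, the order of the Jagged ligands in NC turned, to 27% for JAG1 and 22.8% for JAG2, while NOTCH3 (56.2%) and DLL1 (50.2%) still led in NC. On that length NOTCH2 stood above NOTCH1 in NC, at 14.6 against 9.98 CPM per kilobase.

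**Figure D2:**
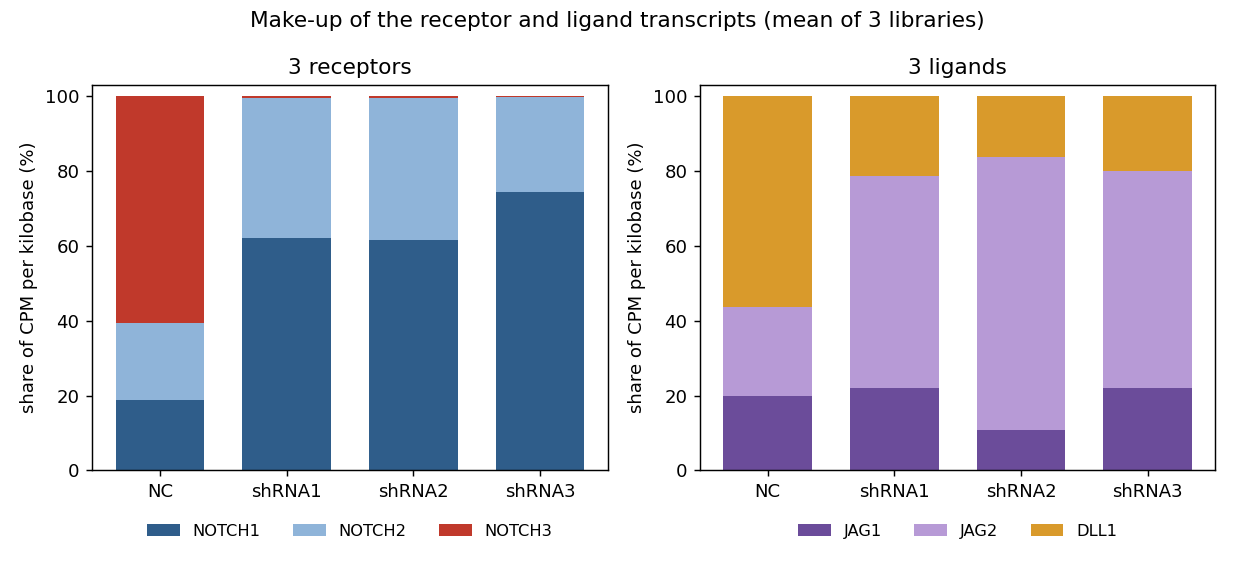
Stacked bars of the mean share (%) of each receptor (left) and each ligand (right) in the summed CPM per kilobase of the 3 genes, by group (n = 3 libraries). NOTCH3 holds 60.7% of the receptor level in NC and under 1% in every shRNA group, and DLL1 gives way to JAG2 among the ligands.

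Among the targets, HEY1 and NRARP rose with every hairpin. NRARP (ENSG00000198435; chromosome 9, 137300482 to 137302251, minus strand) is a direct Notch target whose small ankyrin-repeat protein is known to dampen Notch signalling. It was read at 14.2, 9.003 and 13.02 CPM in NC, at 50.5, 46.1 and 27.3 with shRNA1, at 49.5, 51.6 and 51.3 with shRNA2, and at 80.3, 74.6 and 49.6 with shRNA3. Every shRNA library was above every NC library, with library 3 of shRNA1 the lowest of them. NRARP was 3.42-, 4.21- and 5.64-fold above NC with hairpins 1, 2 and 3. The fitted log2 change was 1.78 (SE 0.27) with the first, 2.07 (SE 0.27) with the second and 2.50 (SE 0.27) with the third hairpin, at adjusted p-values of 0.000173, 6.47e-05 and 1.92e-05.

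HEY1 (ENSG00000164683; chromosome 8, 79764010 to 79767863, minus strand) encodes a repressor of the HES and HEY family. It was read at 3.78, 3.20 and 3.24 CPM in NC, at 9.79, 11.8 and 8.61 with shRNA1, at 14.0, 16.1 and 16.4 with shRNA2, and at 17.9, 21.0 and 21.4 with shRNA3. The 4 groups did not overlap. HEY1 was 2.95-, 4.54- and 5.89-fold above NC with hairpins 1, 2 and 3. The fitted log2 change was 1.56 (SE 0.20) with the first, 2.18 (SE 0.20) with the second and 2.56 (SE 0.20) with the third hairpin, at adjusted p-values of 4.77e-05, 4.84e-06 and 1.91e-06.

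HES1 and HES4 behaved differently from HEY1 and NRARP, and their calls with shRNA3 rested on 2 libraries. HES4 (ENSG00000188290; chromosome 1, 998962 to 1000172, minus strand), a HES-family repressor, was at 54.4, 54.2 and 51.6 CPM in NC, at 28.8, 28.4 and 32.3 with shRNA1, and at 56.5, 53.8 and 58.7 with shRNA2. With shRNA3 the libraries stood at 221, 226 and 31.5 CPM. Libraries 1 and 2 of shRNA3 were thus above every other library, and library 3 was at the level of shRNA1. The log2 fold changes against NC were -0.84 (SE 0.50, adjusted p 0.171) with shRNA1, 0.08 (SE 0.49, adjusted p 0.906) with shRNA2 and 1.58 (SE 0.50, adjusted p 0.02) with shRNA3. Without libraries 1 and 2 of shRNA3 the change with shRNA3 was -0.73 (adjusted p 0.000572) and that with shRNA1 was -0.82 (adjusted p 4.2e-06, both edgeR quasi-likelihood).

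HES1 (ENSG00000114315; chromosome 3, 194136145 to 194138732, plus strand), the best known HES target, showed the same pattern at a smaller size. It was read at 33.9, 34.4 and 37.9 CPM in NC, at 33.0, 31.8 and 24.0 with shRNA1, at 41.5, 37.3 and 40.6 with shRNA2, and at 87.6, 81.4 and 32.1 with shRNA3. Libraries 1 and 2 of shRNA3 were again the highest, and library 3 lay below NC. The log2 fold changes were -0.26 (SE 0.30, adjusted p 0.482), 0.17 (SE 0.30, adjusted p 0.655) and 0.92 (SE 0.30, adjusted p 0.0212). Without libraries 1 and 2 of shRNA3 the change with that hairpin was -0.11 (adjusted p 0.603). In those libraries NRARP (80.3 and 74.6 CPM), NOTCH1 (266 and 225 CPM) and JAG1 were also the highest of their group. JAG2 (103.3 and 95.3 CPM), DLL1 (16.3 and 18.7 CPM), HEY1 and NOTCH3 were the lowest, and NOTCH2 was split. The order of NOTCH1 and JAG1 rests on the TMM scaling, and it changes on unscaled library totals. The promoters of HES1 and HES4 were printed above because of this pattern, and whether the TGGGAA they hold has any part in it was not tested.

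**Figure D3:**
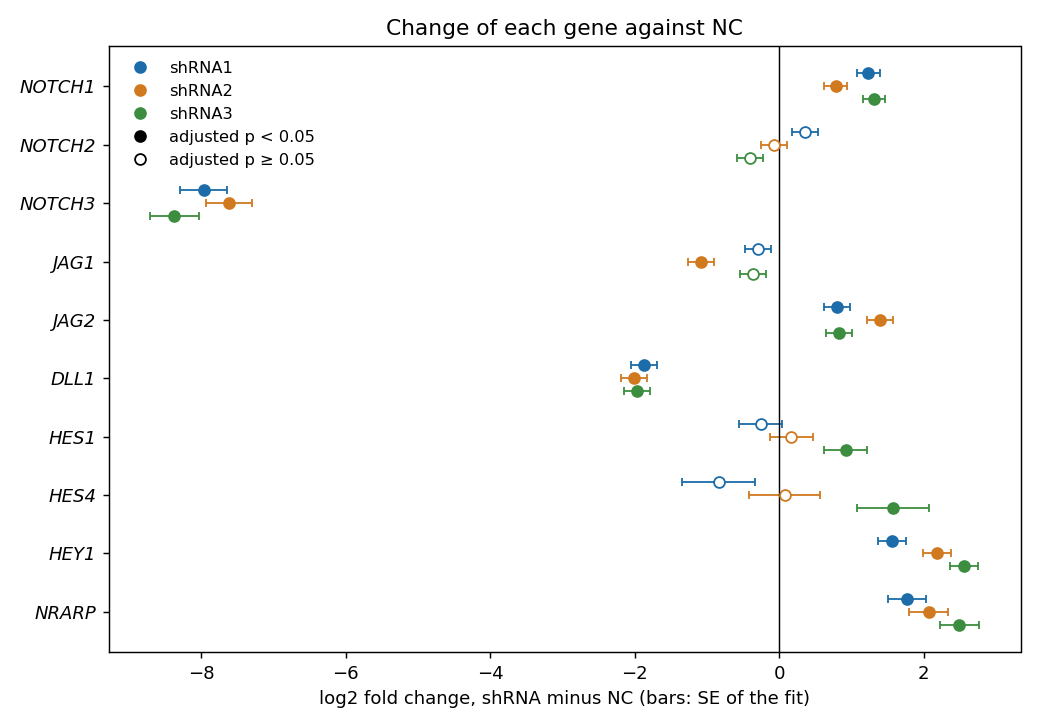
Log2 fold change (x axis, shRNA minus NC) of each gene with shRNA1, shRNA2 and shRNA3; bars are the standard error of the fit, filled points passed an adjusted p of 0.05 and open points did not. NOTCH3 stands at -7.62 to -8.37, NOTCH1, JAG2, HEY1 and NRARP lie to the right of 0 with all hairpins, and HES1 and HES4 pass with shRNA3 alone, through its libraries 1 and 2.

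Counted against NC, 6 of the 10 genes passed with shRNA1 (4 higher, 2 lower), 7 with shRNA2 (4 higher, 3 lower) and 8 with shRNA3 (6 higher, 2 lower). Over all 17532 genes tested, 57.4%, 53% and 53.9% passed, so a count of 6 to 8 in 10 is near the background. All 10 genes passed the filter on low counts. With the mean of the 3 hairpins against NC, 7 genes passed, against 60% of all genes (4 higher and 3 lower, against 27.9% and 32.2%). Libraries of the groups did not overlap for 8, 7 and 8 of the 10 genes with shRNA1, shRNA2 and shRNA3, against 74.3%, 79.6% and 57.5% of all genes. NOTCH1, JAG2, HEY1 and NRARP were higher and NOTCH3 and DLL1 lower with all 3 hairpins, a pattern of 1 direction in all 3 comparisons that 35.7% of all genes also showed. The 3 comparisons share the NC libraries. The median absolute log2 change of the 10 genes was 1.04 (shRNA1), 1.24 (shRNA2) and 1.44 (shRNA3), and 0.92, 0.85 and 0.87 over all genes. Without libraries 1 and 2 of shRNA3, 1 library was left in that group. The log2 changes with shRNA3 were then -0.11 for HES1, -0.73 for HES4 and -0.60 for JAG1.

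The hairpin groups were then set against each other. JAG1 was 1.72-fold higher with shRNA1 than with shRNA2 (log2 0.78, SE 0.18, adjusted p 0.0205) and 1.65-fold lower with shRNA2 than with shRNA3 (log2 -0.72, SE 0.18, adjusted p 0.0417). The latter call was lost under 15 of 20 alternatives (largest adjusted p 0.275) and the former under 4 (largest 0.103, without library 3 of shRNA2). JAG1 was the single gene of the 10 that passed in either comparison, where 12.3% and 8.34% of all genes passed (5.78% higher with shRNA1 than with shRNA2, and 1.91% higher and 6.43% lower with shRNA2 than with shRNA3). The groups did not overlap for 7, 2 and 6 of the 10 genes between shRNA1 and shRNA2, shRNA1 and shRNA3, and shRNA2 and shRNA3, against 49.5%, 30.2% and 27.1% of all genes. Between shRNA1 and shRNA3, 4 of the 10 genes passed (30% of all genes): NOTCH2 was higher with shRNA1 (log2 0.77, SE 0.18, adjusted p 0.0127), and HEY1 (log2 -0.998, SE 0.19, adjusted p 0.00625), HES1 (log2 -1.18, SE 0.30, adjusted p 0.0168) and HES4 (log2 -2.42, SE 0.52, adjusted p 0.00972) were lower. NOTCH3 and DLL1 did not pass between any hairpins, and the 95% intervals of their differences reached from -1.03 to 1.49 and from -0.435 to 0.531 log2 units over the 3 pairs. The NOTCH3 interval for shRNA2 minus shRNA3 lay wholly on the positive side (0.022 to 1.49, adjusted p 0.147), and the libraries of those groups did not overlap. These counts depended on which shRNA3 libraries were in the fit. The comparison of shRNA1 with shRNA2 holds no shRNA3 library, but all 4 groups share 1 estimate of spread per gene. Without library 3 of shRNA3, 7, 5 and 6 genes passed for shRNA1 against shRNA2, shRNA1 against shRNA3 and shRNA2 against shRNA3. Of all 18242 genes tested in that fit, 7233, 11573 and 10799 passed, so the counts over all genes moved too.

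Around these genes, 45 further components of the pathway were examined by role, of which 42 passed the filter on low counts (NOTCH4, DLK1 and HES5 did not). With shRNA1, 10 were higher and 16 lower (26.8% and 30.6% of all genes), with shRNA2 7 and 18 (24.6% and 28.4%), and with shRNA3 8 and 15 (26.4% and 27.6%). Their median log2 fold change was -0.03, -0.31 and -0.40, against -0.02, -0.05 and -0.03 over all genes. With all 3 hairpins 4 were higher and 11 lower, against 16% and 19.7% of all genes. Of these, DTX1, DTX3 and HEYL passed the filter on low counts through NC alone, and DLL3 through the shRNA libraries alone. The direction of these genes was thus set by the filter.

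Among the receptor-turnover genes, 5 of 9 were lower with all 3 hairpins (19.7% of all genes) and none was higher with all 3 (16% of all genes). DTX3 and DTX1 are among the 5, and both passed the filter on low counts through NC alone. DTX3, a Deltex-family ubiquitin ligase gene, had 11.98 ± 1.74 CPM in NC and 2 counts in all 3 shRNA1 libraries together. That is a 360-fold lower level with a counting interval of 99.4 to 2980. DTX3 had 0 counts with shRNA2 and shRNA3, at least 70.4- and 61.0-fold lower than in NC (against 3 counts per library). DTX1, of the same family and itself a known Notch target, had 1.75 ± 0.224 CPM in NC, 2 counts with shRNA1 and 0 with shRNA2 and shRNA3, at least 10.3- and 8.92-fold lower with the latter. DTX2 was 3.23-, 1.76- and 1.68-fold lower than its 101.2 ± 3.60 CPM in NC. NUMBL, of the Numb family of Notch antagonists, was 1.49-, 1.63- and 1.97-fold lower than its 48.1 ± 3.25 CPM.

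Of the 5 further HES and HEY genes tested, HES2 and HES7 were higher and HEYL lower with all 3 hairpins. HES2 had 12.4 ± 0.314 CPM in NC and 80.5 ± 27.4, 66.5 ± 4.10 and 39.9 ± 21.99 under hairpins 1, 2 and 3. HES7 had 6.53 ± 1.41 CPM in NC and 20.3 ± 1.51, 26.9 ± 2.05 and 59.6 ± 10.2. HEYL, a HEY-family repressor gene, had 7.79 ± 1.44 CPM in NC, 2 counts in all with shRNA1, 2 with shRNA2 and 0 with shRNA3. The levels were 235-fold (counting interval 64.6 to 1940) and 206-fold (56.8 to 1710) lower with shRNA1 and shRNA2 and at least 39.6-fold lower with shRNA3.

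Of the 3 further ligands tested, DLL3 and DLK2 were higher with all hairpins. DLL3, a ligand known to act within its own cell, had 2 counts in the 3 NC libraries together and 3.98 ± 0.840, 4.13 ± 0.637 and 5.44 ± 1.06 CPM under hairpins 1, 2 and 3. These are ratios of 119 (counting interval 32.7 to 992), 123 (33.7 to 1020) and 165 (45.2 to 1370). DLK2, a Delta-like protein, had 8.01 ± 0.702 CPM in NC and was 1.73-, 3.67- and 3.72-fold higher. Among the 8 nuclear genes, the Mastermind co-activator MAML2 was lower with all hairpins, from 22.8 ± 0.821 CPM in NC to 1.50 ± 0.981, 6.93 ± 0.828 and 6.10 ± 3.11. Among the 8 cleavage genes, APH1B, a subunit of gamma-secretase, was 2.91-, 2.001- and 4.19-fold lower than its 11.6 ± 1.66 CPM in NC. MIB1, a ubiquitin ligase needed for ligand endocytosis, was 2.69-, 2.61- and 1.74-fold lower than its 122.6 ± 12.5 CPM. Its shRNA3 call (adjusted p 0.0477) was lost under 13 of 20 alternatives, up to an adjusted p of 0.199 (edgeR quasi-likelihood). Also lost were the calls of APH1B with shRNA2 (adjusted p 0.0309) under 6 of 20 alternatives (largest adjusted p 0.108), of NUMBL with shRNA1 (adjusted p 0.0248) under 4 (largest 0.0775) and of DLK2 with shRNA1 (adjusted p 0.0135) under 2 (largest 0.0501). The 5 genes of sugar modification held none that passed with all 3 hairpins. The other genes that passed with all 3 were SNW1, MIB2 and NUMB, all lower.

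**Figure D4:**
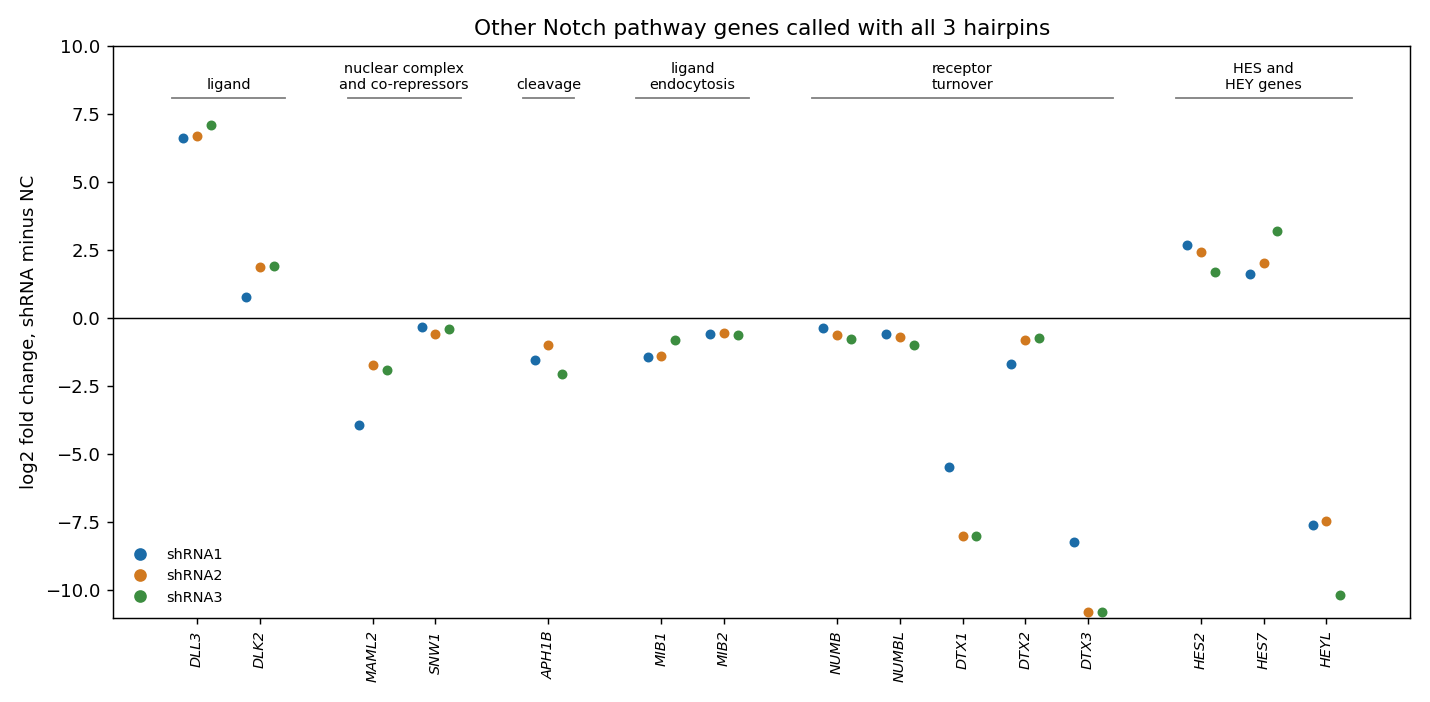
Log2 fold change (y axis, shRNA minus NC) of the 15 further pathway genes that passed an adjusted p of 0.05 with all 3 hairpins in 1 direction, grouped by role; points are the hairpins. DTX1, DTX3 and HEYL lie lowest and DLL3 highest, and where a group has 0 counts the plotted value depends on the prior count of the fit and is no measured size.

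For the receptor, ligand and target with the largest change for the mean of the 3 hairpins (NRARP at 2.12, just above HEY1 at 2.10, which changed more with shRNA2 and shRNA3), the genes with the nearest profile over the 12 libraries were sought among 13846 genes, by the root mean square difference of centred log2(CPM + 1). Those nearest to NOTCH3 were HLA-DRA (0.22 log2 units), GLUL (0.30) and ICAM1 (0.33), with 117, 176 and 568 CPM in NC and 0.011, 0.0168 and 2.76 over the 9 shRNA libraries. Those nearest to DLL1 were CHURC1 (0.16), ZNF480 (0.17) and CALCRL (0.17), and those nearest to NRARP were NMU (0.20), OAF (0.20) and TUBA1A (0.21). NC against the shRNA libraries is the main axis of all these profiles, and the likeness is a description only.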

How the data were processed

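The authors deposited 1 table holding an estimated count per gene for the 12 libraries, not scaled to a common total, of which 13.8% of values are not whole. HISAT2, HTSeq 0.11.2 and GRCh38 are named, with no role given, in the submitters' processing notes. The annotation and the use of strand are not given in the sources used here, so reads of overlapping genes on opposite strands may be mixed. Groups, replicate numbers and table columns come from the sample titles (columns not matched: 0). Rows without an Ensembl ID (380, at most 0.220% of counts) were kept.

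Counts were rounded, TMM-scaled and filtered with edgeR's filterByExpr (minimum count 10, minimum total 15), and tested two-sided with edgeR 4.0.16 quasi-likelihood (R 4.3.3, robust, 8 residual degrees of freedom) in 1 model of 4 groups, with Benjamini-Hochberg adjustment over 17532 genes and a threshold of 0.05. The test was first run on simulated counts with the same spread for every gene, changes in shRNA1 alone and no outlying libraries. That run checks the code and not the error rate on these data. Standard errors are the log2 fold change over the root of F. CPM are TMM-scaled. Symbols come from a table of gene names, positions and exon lengths by Ensembl ID from GENCODE release 29, promoters from RefSeq (GRCh38.p14). Intervals on counts are exact (95%) and cover counting error only. No replicate libraries agreed within sampling noise (chi-square per gene 3.61 to 240). Alternatives were DESeq2 1.42.0 (size factors, Wald test), other filters, a 0.01 threshold, a replicate block, only the groups compared, libraries left out, raw-total CPM and the longest transcript. The members, lists and tests were chosen with earlier results of these data known. All 10 members are named, and of the other pathway genes the 12 with the largest smallest change among those passing with all 3 hairpins in 1 direction. Values of some listed genes are not reported here.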

Additional observations from a re-analysis of the deposited data

Results flagged for a closer look

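Between shRNA1 and shRNA3, 3 of the 10 genes had log2 changes of opposite sign against NC and passed the test of the difference itself (edgeR quasi-likelihood). Of all genes, 30% passed that test, and how many of them had opposite signs was not counted. Against NC, NOTCH2 passed with neither hairpin, and HES1 and HES4 passed with shRNA3 but not with shRNA1. NOTCH2 differed by a log2 value of 0.77 (shRNA1 minus shRNA3, adjusted p 0.0127), with 3 of 3 shRNA1 libraries above all 3 shRNA3 libraries. HES1 differed by -1.18 (adjusted p 0.0168) and HES4 by -2.42 (adjusted p 0.00972). Without libraries 1 and 2 of shRNA3 the difference was -0.13 (adjusted p 0.704) for HES1 and -0.09 (adjusted p 0.72) for HES4. That of NOTCH2 kept its size at 0.67 but not its call (adjusted p 0.0871), with 1 library left in the shRNA3 group.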

How the results depend on the processing

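Against NC, the calls of NOTCH1, NOTCH3, JAG2, DLL1, HEY1 and NRARP kept direction and threshold with each hairpin under all 20 alternatives, as did JAG1 with shRNA2. The members called numbered 6 to 8, 7 to 7, 6 to 9 and 7 to 9 (shRNA1, shRNA2, shRNA3, mean) when each library was left out in turn. The other pathway genes numbered 23 to 33, 19 to 32, 20 to 32 and 23 to 36. Over all genes, with 18039 to 18308 tested, 8677 to 13341, 7960 to 12798, 8314 to 13330 and 9012 to 13529 passed. HES4 with shRNA3 lost its call under 8 alternatives (adjusted p up to 0.0929) and HES1 under 6 (up to 0.0768 where the direction held). Without both shRNA3 libraries 1 and 2, HES4 reversed to -0.73 with shRNA3, to -0.49 for the mean of the hairpins and to 0.83 for shRNA2 minus shRNA3, and HES1 with shRNA3 reversed to -0.11. The cause was not tested.

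Counts between hairpins were less stable, and the counts over all genes moved too. With only the 6 libraries compared, 6252 of 15256 genes passed for shRNA1 against shRNA2. For shRNA1 against shRNA3 and shRNA2 against shRNA3, 0 of 15326 and 0 of 15116 passed. With 1 shRNA2 library left out, 559 to 662 genes passed for shRNA1 against shRNA2 and 0 for shRNA2 against shRNA3. The counts of the 10 genes below are to be read beside these. For shRNA1 against shRNA2 (1 gene) they were 0 at an adjusted p under 0.01, 3 with a mean of at least 50 counts, 4 with the DESeq2 Wald test, 7 with only the 6 libraries compared, 7 without both shRNA3 libraries 1 and 2, and 0 to 7 leaving out 1 library (0 without any shRNA2 library, with 4 at an unadjusted p under 0.05; 3 without shRNA1 library 3; 2 without shRNA3 library 2; 7 without shRNA3 library 3). For shRNA1 against shRNA3 (4 genes) they were 2 at 0.01, 0 with only the 6 libraries (5 unadjusted), 1 without both shRNA3 libraries 1 and 2, and 2 to 5 leaving out 1 library (2 without shRNA3 library 2). For shRNA2 against shRNA3 (1 gene) they were 0 at 0.01, 2 with DESeq2 size factors, 0 with no filter (6 unadjusted), 2 with a mean of at least 50 counts, 4 with the DESeq2 Wald test, 0 with only the 6 libraries (3 unadjusted), and 0 to 6 leaving out 1 library, with 2 without shRNA1 library 3, 6 without shRNA3 library 3 and 0 without each other library (4 to 6 unadjusted).

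With the replicate number as a block the members called were 6, 7 and 8 against NC (9689, 8949 and 9116 of all 17532 genes). For shRNA2 against shRNA3 the block gave 0 (6 unadjusted), and 378 over all genes. Same-numbered libraries of different groups did not deviate together (mean correlation -0.0107 over 18 pairs, 0.00443 over 36 pairs with different numbers, 3 of 12 libraries nearest to their own number), so the numbers are not taken as pairs. NOTCH3 with the hairpins rests on 8 to 35 counts a library, which limits what can be said of differences between hairpins.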

Other observations

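Several core genes of the pathway passed with only 1 or 2 of the 3 hairpins; those given here were chosen after their values were seen. RBPJ, the DNA-binding partner of the receptors, had log2 fold changes against NC of 0.67 (adjusted p 0.00097), 0.28 (0.0919) and 0.58 (0.00268) with shRNA1, shRNA2 and shRNA3. NCSTN, the nicastrin subunit of gamma-secretase, stood at -1.59 (adjusted p 6.26e-05), -0.94 (0.00218) and -0.43 (0.0866). ADAM10, the protease that makes the outer cut, stood at -0.78 (adjusted p 0.00403), -0.48 (0.0479) and -0.12 (0.6). Between hairpins, NCSTN and ADAM10 were lower with shRNA1 than with shRNA3 (-1.15, adjusted p 0.00523, and -0.65, adjusted p 0.0246), and their other pairs did not pass. LFNG, a sugar transferase that alters the ligand preference of the receptors, was higher with shRNA2 (1.73, adjusted p 0.00601), and DLL4 with shRNA1 (2.01, adjusted p 0.00488). No pair of hairpins passed for RBPJ, LFNG or DLL4. These are edgeR quasi-likelihood tests with adjustment over all genes.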
